A study of Mus musculus with 13 samples.

Results

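Polycomb repressive complexes keep genes silent by marking and compacting chromatin. PRC2 methylates histone H3 on lysine, with Ezh1 or Ezh2 as its catalytic subunit, Suz12 as its scaffold and Eed as the subunit that binds the methyl mark. Canonical PRC1 reads that mark through a Cbx protein and holds a Pcgf subunit such as Bmi1. In fibroblasts Bmi1 is best known as a repressor of the Cdkn2a locus, which encodes p16Ink4a and p19Arf, and loss of that repression accompanies senescence in culture.

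The 9 genes described here are Ezh1, Ezh2, Eed, Suz12, Bmi1, Cbx2, Cbx6, Cbx7 and Cbx8, found by symbol among the 55487 genes of both deposited count tables. Their levels were read from 13 poly-A RNA-seq libraries of primary mouse embryonic fibroblasts (MEFs) and of lines that immortalized spontaneously in culture. Of these, 3 came from primary WT MEFs of clones 3, 4 and 5, 3 from the immortalized lines of the same numbers, 3 from primary Prkd3-/- MEFs of clones 13, 14 and 15, and 4 from immortalized Prkd3-/- lines 13, 13a, 14 and 15. Lines 13 and 13a share clone number 13, and the main fits, n and SDs count them as 2 libraries. Prkd3 encodes protein kinase D3, and the sources used here do not say which part of it the allele removes. Cells were grown in medium with 10% fetal calf serum, and the primary libraries were taken before immortalization. The lines came from MEFs passaged by a modified 3T3 protocol to senescence, kept in 20% serum until colonies grew out and, per the study's methods for WT, expanded in 10% serum. Embryo age and strain are not given in the sources used here.

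Library totals ranged from 35273408 to 100441756 counts, and 8 of the genes held at least 228 counts in every library, while Cbx7 held 26 to 270. Values are CPM, library-size-scaled counts adjusted by TMM over the 13 libraries. The primary WT libraries differed from each other by 2.09% to 3.39% beyond counting error and the WT lines by 19.9% to 25.7%. The primary Prkd3-/- libraries differed by 8.98% to 22.5% and the Prkd3-/- lines by 26.4% to 52.6%. Of the 3 primary WT libraries, 3 held both Xist and the Y-linked Ddx3y at 1 CPM or more, as did 2 WT lines and 0 Prkd3-/- libraries, so whether each WT number stands for a single embryo was not tested. The Prkd3 gene itself was counted at 69.2 to 93.8 CPM in WT and at 33.6 to 61.0 CPM in the libraries labelled Prkd3-/-, and a count over the whole gene does not check a deletion of single exons. The sum of 9 fibroblast markers was high throughout, at 18557 to 67896 CPM, but their mean log2 CPM was not even. That mean was 10.1 to 10.2 in primary WT libraries and 7.26, 10.1 and 9.996 in WT lines 3, 4 and 5. It was 8.53 to 9.30 in primary Prkd3-/- libraries and 6.66, 9.81, 9.31 and 7.42 in lines 13, 13a, 14 and 15. The part of these marker levels in the results was not tested. The summed CPM of 9 macrophage markers fell between 647 and 664 in primary WT libraries, 33.0 and 97.9 in WT lines, 90.1 and 973 in primary Prkd3-/- libraries and 9.96 and 171 in Prkd3-/- lines, and their part in the results was not tested. Fewer cells of a type and less RNA per cell cannot be told apart in bulk libraries. Genotype and deposited table cannot be told apart. The p-values measure the spread between these cultures, which in WT need not be the spread between embryos.

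RefSeq promoters on GRCm38.p6, 250 bases before and 50 from the annotated start, were held for 8 of the 9 genes, and Cbx2 had none. Those of Bmi1, Ezh2 and Suz12 are shown, Bmi1 because it alone was called in the main comparison and the others because they were highest in the same lines. Each runs 5′ to 3′ and stops 20 bases into the transcript, and capitals mark matches to the E2F letters (TTTCCCGC, TTTGGCGC, TTTCGCGC, TTTGCCGC), the E-box CACGTG and the CCAAT box, on either strand.
Bmi1, chr2:18676768-18677037, + strand: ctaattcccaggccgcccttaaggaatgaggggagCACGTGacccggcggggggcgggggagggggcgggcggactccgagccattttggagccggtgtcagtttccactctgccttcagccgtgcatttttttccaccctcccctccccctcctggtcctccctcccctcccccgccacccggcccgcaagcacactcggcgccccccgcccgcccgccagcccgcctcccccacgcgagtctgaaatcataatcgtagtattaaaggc
Ezh2, chr6:47595011-47595280, - strand: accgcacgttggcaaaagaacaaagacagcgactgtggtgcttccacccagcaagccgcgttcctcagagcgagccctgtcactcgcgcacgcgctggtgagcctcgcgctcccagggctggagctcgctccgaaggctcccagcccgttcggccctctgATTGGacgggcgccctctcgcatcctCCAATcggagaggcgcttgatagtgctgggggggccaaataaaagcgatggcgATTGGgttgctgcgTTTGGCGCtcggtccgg
Suz12, chr11:79992856-79993125, + strand: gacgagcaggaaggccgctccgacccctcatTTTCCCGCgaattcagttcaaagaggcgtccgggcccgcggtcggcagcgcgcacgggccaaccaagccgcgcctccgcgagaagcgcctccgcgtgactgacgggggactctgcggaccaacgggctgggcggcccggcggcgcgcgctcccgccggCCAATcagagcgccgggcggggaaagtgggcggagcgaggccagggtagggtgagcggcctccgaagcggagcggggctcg
The E2F letters occurred in 2 of the 8 promoters, beginning at base 4 counted from the start in Ezh2 and at base -219 in Suz12, against 2.27% of 32841 RefSeq promoters. An E-box occurred in 3, those of Bmi1, Cbx6 and Cbx8, against 7.15% of promoters. A CCAAT box occurred in 5, and 37.4% of all promoters held one. Of the other letters searched, the GC box GGGCGG occurred in 5 (35.7% of all promoters), the CHR element (TTTGAA or TTCGAA) in 3 (19.2%) and TATAAA in 0 (13.6%). Some matches overlapped, as in the runs of GC boxes of Bmi1. The 8 promoters held 17 to 41 CpG dinucleotides in 300 bases, against a median of 7 over all promoters. The E2F and E-box letters contain a CpG, and the part of CpG content in their shares was not tested. All of these are matches of letters and do not show that a factor binds.

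Bmi1 was the 1 gene of the 9 for which all lines of both genotypes exceeded all of their primary libraries. Bmi1 (ENSMUSG00000026739) lies on chromosome 2 from 18677018 to 18686629 on the + strand, and shares no exon bases with another gene. Primary WT clones 3, 4 and 5 held 47.3, 47.5 and 44.0 CPM, and the lines of the same numbers held 67.8, 108 and 72.8 CPM. Primary Prkd3-/- clones 13, 14 and 15 held 51.6, 58.1 and 49.3 CPM, and lines 13, 13a, 14 and 15 held 116, 74.3, 90.3 and 86.6 CPM. The groups did not overlap in either genotype, and even the lowest of the 7 lines stood above the highest of the 6 primary libraries. Against the primary clone of its number (13 for line 13a) each line was between 1.44 and 2.27 times as high. Group means were 46.2 ± 1.93 in primary cells and 82.8 ± 21.7 CPM (SD, n = 3 and 3) in lines of WT, and 53.0 ± 4.59 and 91.8 ± 17.5 CPM (SD, n = 3 and 4) in Prkd3-/-. All lines lay above all primary libraries for 14% of genes tested in WT, 4.19% in Prkd3-/- and 1.37% in both, so Bmi1 shares this pattern with 290 genes in all.

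**Figure D1:**
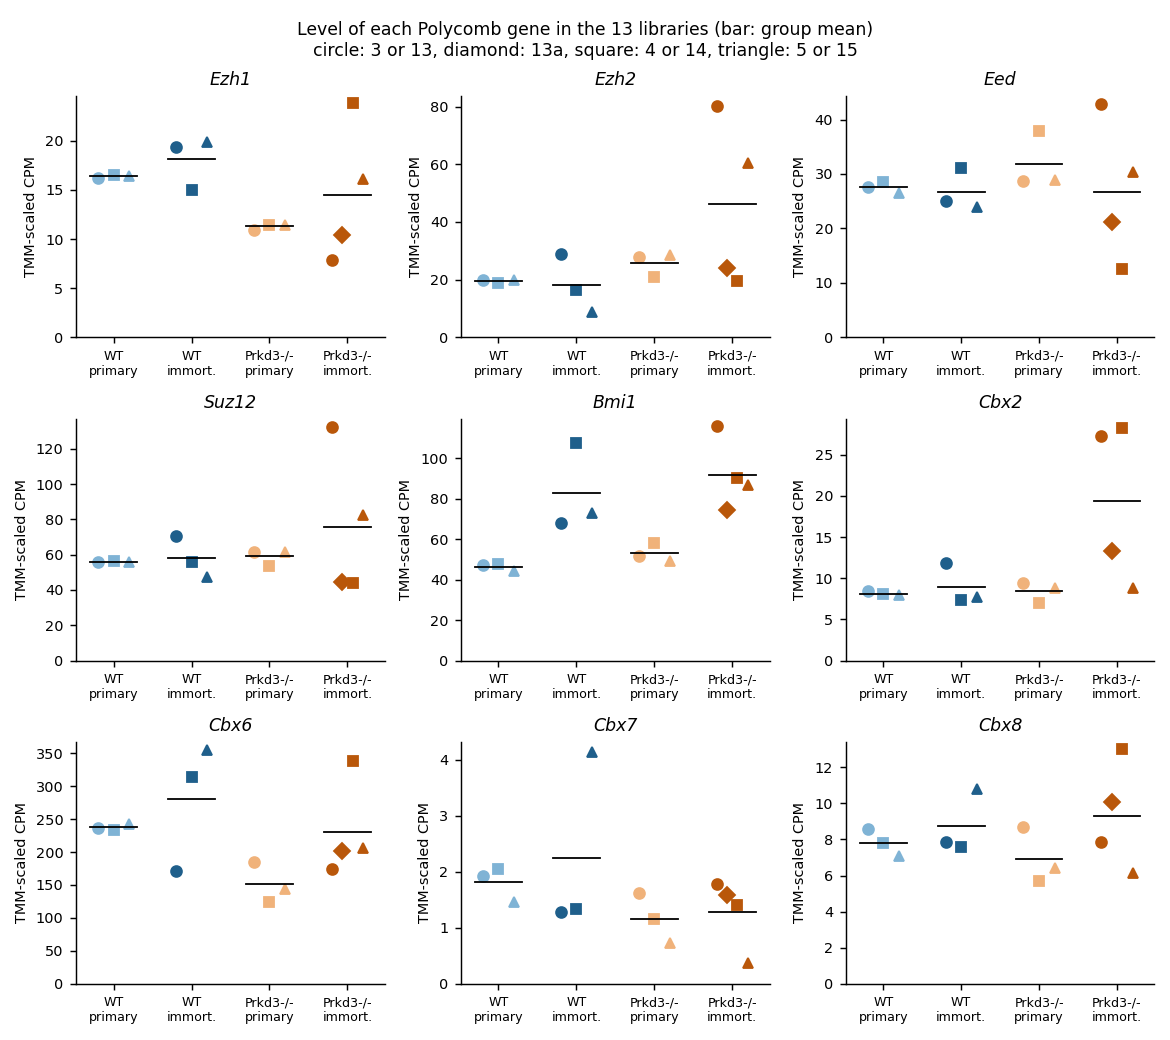
CPM of the 9 Polycomb genes in the 13 libraries, 1 panel per gene with its own axis from 0, 1 point per library (circle for 3 or 13, diamond for 13a, square for 4 or 14, triangle for 5 or 15) and a bar at each group mean. For Bmi1 the lines sit at 67.8 to 116 CPM, all above the primary libraries at 44.0 to 58.1 CPM, while for each other gene lines and primary libraries overlap in both genotypes.

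Bmi1 passed the test in the mean of both genotypes, at a Log2FC of 0.82 ± 0.14 (SE) with an adjusted p of 0.0105 in edgeR, rank 172 of 21197 genes by p and 8 among genes that were higher. It was 1 of the 9 Polycomb genes past an adjusted p of 0.05, where 3.25% of all genes passed in either direction and 0.42% were higher. With the number as a block, which sets each line against the primary clone of its number, the Log2FC was 0.80 at an adjusted p of 0.0771 in edgeR, so the call was lost under pairing. Within WT alone the Log2FC was 0.84 ± 0.19 (adjusted p = 0.0718 in edgeR), where 5.27% of genes passed. Bmi1 passed in 4 of 15 alternative fits in WT. These were DESeq2 (adjusted p = 0.00578, where 7.3% of genes passed), limma with a weight per group (0.0349, 4.62% of genes), and edgeR without line 3 (0.0315, 12.2%) or without line 4 (0.0221, 7.13%). With 1 library left out, its edgeR adjusted p in WT reached 0.289. Within Prkd3-/- the Log2FC was 0.78 ± 0.19 (adjusted p = 0.485 in edgeR), a comparison in which 0 of 20298 genes passed, 1331 had an unadjusted p under 0.05 and DESeq2 called 353. Bmi1 passed in 0 of 17 alternative fits within Prkd3-/-, DESeq2 among them. The difference between the genotypes in the Bmi1 Log2FC was -0.05 ± 0.27 (edgeR adjusted p = 1.00). None of the 9 genes passed the study's own thresholds, an adjusted p under 0.01 and a |Log2FC| of at least 1, which 1.82% of genes passed in WT, 0% in Prkd3-/-, 0.741% in the mean of both, 0.17% between primary and 0.259% between immortalized cells of the genotypes.

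The level of chromosome 2 as a whole stayed close to that of the autosomes in every line. Median log2 ratios of 1221 chromosome 2 genes to the primary libraries lay between -0.04 and 0.06 in the 7 lines, relative to all autosomes. Among 13 expressed genes within 2 Mb of Bmi1, the median ratio ran from -0.63 in Prkd3-/- line 13 to 0.25 in line 13a, while Bmi1 itself ran from 0.49 to 1.20.

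Cdkn2a, the locus that Bmi1 is known to repress, was at 58.2 to 61.5 CPM in primary WT libraries and at 78.4, 61.0 and 215 CPM in WT lines 3, 4 and 5. In Prkd3-/- it was at 64.0 to 85.9 CPM in primary libraries and at 0.229, 187, 69.2 and 85.3 CPM in lines 13, 13a, 14 and 15. Its neighbour Cdkn2b, which encodes p15Ink4b, was at 81.8 to 85.9 CPM in primary WT libraries and at 21.4, 30.4 and 104 CPM in WT lines 3, 4 and 5, and at 77.7 to 84.1 CPM in primary Prkd3-/- libraries and 0.134, 59.2, 32.0 and 23.5 CPM in lines 13, 13a, 14 and 15. Line 13, where both genes were near 0 (12 and 7 counts), had the highest Bmi1 of all 13 libraries (116 CPM). WT line 4 came next at 108 CPM of Bmi1, with Cdkn2a within the primary WT range. The part of Bmi1 in the Cdkn2a and Cdkn2b levels was not tested.

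**Figure D2:**
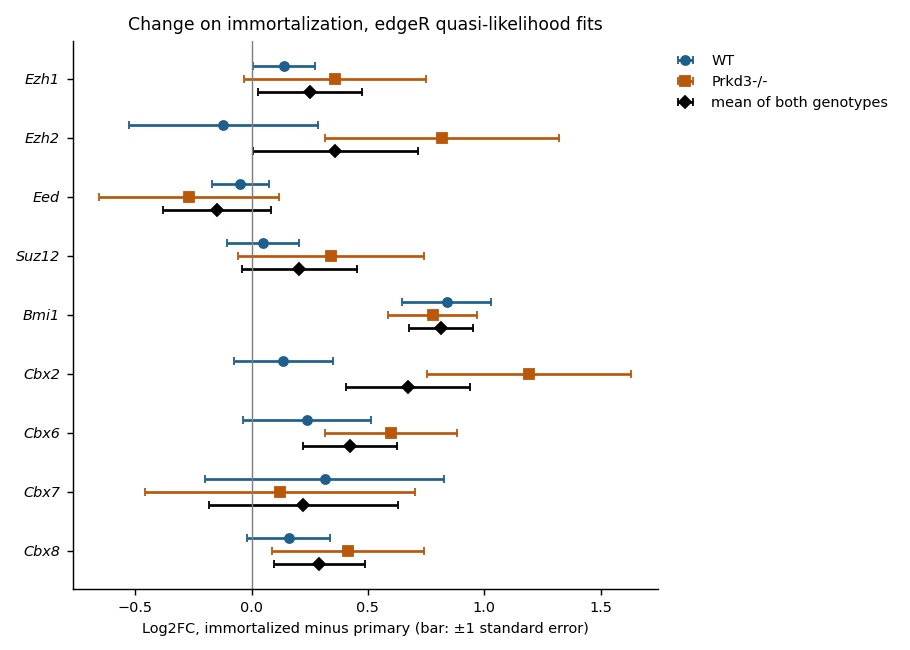
Log2FC (immortalized minus primary, points) with ±1 standard error (bars) for the 9 genes in WT, in Prkd3-/- and in the mean of both, from edgeR fits over all genes. Bmi1 stands at 0.78 to 0.84 in the 3 comparisons with short bars, and Cbx2 at 0.14 in WT against 1.19 in Prkd3-/-.

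Ezh2, the catalytic subunit of PRC2 that dividing cells use most, went up in some lines and down in others. It was at 19.9, 18.8 and 19.9 CPM in primary WT clones 3, 4 and 5 and at 28.7, 16.3 and 8.86 CPM in their lines. It was at 27.8, 21.1 and 28.4 CPM in primary Prkd3-/- clones and at 80.2, 24.0, 19.7 and 60.4 CPM in lines 13, 13a, 14 and 15. WT line 3 and Prkd3-/- lines 13 and 15 stood above their primary libraries, and WT lines 4 and 5 and Prkd3-/- line 14 stood below. The Ezh2 range of 3.24-fold over the WT lines was exceeded by 12.3% of 15274 genes at a mean of 1 CPM or more, whose median range was 1.44-fold. The Log2FC of Ezh2 was -0.12 ± 0.41 in WT, 0.82 ± 0.50 in Prkd3-/- and 0.36 ± 0.35 in the mean of both, with edgeR adjusted p-values of 0.900, 0.833 and 0.661. The difference between genotypes was 0.96 ± 0.71 (edgeR adjusted p = 1.00), and 0 genes passed that test, with 841 at an unadjusted p under 0.05 and 38 called by DESeq2. Between immortalized lines the Ezh2 difference of Prkd3-/- minus WT was 1.36 ± 0.50 on the log2 scale, which did not pass either (adjusted p = 0.242 in edgeR), while 0.693% of genes did.

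The 12 proliferation markers, among them Mki67, Top2a and Cdk1, had their lowest and highest sums in the same libraries as Ezh2. Their summed CPM was 845, 594 and 265 in WT lines 3, 4 and 5, and 688 to 775 in primary WT libraries. It was 2819, 663, 731 and 1330 in Prkd3-/- lines 13, 13a, 14 and 15, and 526 to 1154 in primary Prkd3-/- libraries. WT line 5 was the lowest library and Prkd3-/- line 13 the highest in both measures, followed by line 15. The order was not the same throughout: line 14 had more marker CPM than line 13a but less Ezh2, at 19.7 against 24.0 CPM. All 12 markers had a negative Log2FC in WT (median -0.45) and all 12 a positive one in Prkd3-/- (median 0.61), with 0 of 12 passing the edgeR test in each, against medians of 0.04 and 0.07 over all genes tested. The part of cycling in the Ezh2 level was not tested.

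**Figure D3:**
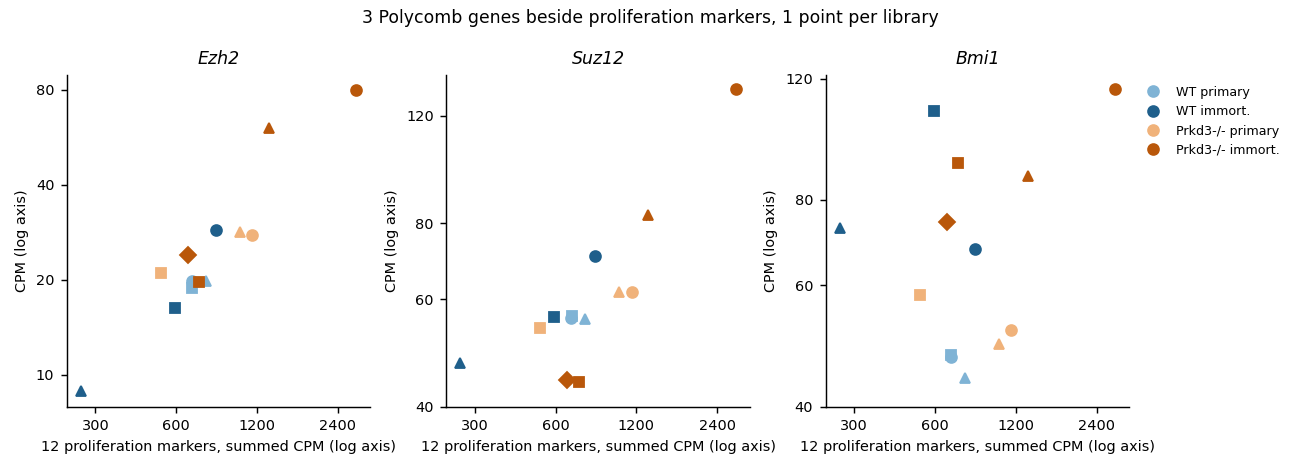
CPM of Ezh2, Suz12 and Bmi1 (y, log axes) against the summed CPM of 12 proliferation markers (x, log axes), 1 point per library, with colour for the group and the same shapes for the numbers as in the plot of CPM by library. Ezh2 runs from 8.86 CPM in the library with the lowest marker sum (265) to 80.2 CPM in the one with the highest (2819), while Bmi1 at 72.8 CPM in the former is above every primary library.

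Suz12, the PRC2 scaffold, was steady in primary cells and ranged 3.02-fold over the Prkd3-/- lines. That range was exceeded by 28.8% of 15301 genes, whose median range was 2.06-fold. It was at 56.0, 56.3 and 55.7 CPM in primary WT clones and at 70.6, 56.1 and 47.2 CPM in lines 3, 4 and 5. In Prkd3-/- it was at 61.6, 53.8 and 61.8 CPM in primary clones and at 133, 44.3, 43.9 and 82.5 CPM in lines 13, 13a, 14 and 15. The same lines as for Ezh2, WT line 3 and Prkd3-/- lines 13 and 15, were the ones above their primary libraries. Its Log2FC was 0.05 ± 0.15 in WT, 0.34 ± 0.40 in Prkd3-/- and 0.21 ± 0.25 in the mean of both (edgeR adjusted p = 0.893, 0.889 and 0.722), and without line 13 the mean fell to -0.0012.

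Eed, the subunit that binds trimethylated H3K27, was lowest in Prkd3-/- line 14. It was at 27.7, 28.6 and 26.5 CPM in primary WT clones, and at 25.1, 31.1 and 23.9 CPM in lines 3, 4 and 5. It was at 28.7, 37.8 and 28.9 CPM in primary Prkd3-/- clones, and at 42.9, 21.2, 12.6 and 30.4 CPM in lines 13, 13a, 14 and 15. Eed lies on chromosome 7 and shares 6.82% of its exon bases with E230029C05Rik on the other strand, whose reads cannot be told apart in a count without strand. Its Log2FC was -0.05 ± 0.12 in WT, -0.27 ± 0.39 in Prkd3-/- and -0.15 ± 0.23 in the mean of both (edgeR adjusted p = 0.868, 0.907 and 0.798).

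Chromosome medians moved in some of the lines where these genes did. In line 14 the median of 1194 chromosome 7 genes was -0.63 on the log2 scale relative to autosomes, and Eed was at -1.31. In lines 13, 13a and 15 the chromosome 7 median was 0.0052, -0.18 and -0.15, while Eed was at 0.40, -0.58 and -0.07. Among 19 expressed genes within 2 Mb of Eed, the median was -0.85, -0.25, -0.53 and -0.38 in lines 13, 13a, 14 and 15. In line 15 the median of 799 chromosome 6 genes was 0.56, and Ezh2, which lies on that chromosome, was at 1.23. In line 13 the chromosome 6 median was -0.04, while Ezh2 was at 1.61. In lines 13a and 14 it was 0.18 and 0.13, while Ezh2 was at -0.10 and -0.36. In the 3 WT lines the medians of chromosomes 6 and 7 stayed within -0.03 and 0.01. Cbx6 and Cbx7 lie on chromosome 15. The median of 620 genes there was 0.10, 0.14, 0.11 and 0.27 in Prkd3-/- lines 13, 13a, 14 and 15. It was 0.01, -0.01 and 0.17 in WT lines 3, 4 and 5. The part of chromosome level in the Eed, Ezh2, Cbx6 and Cbx7 values was not tested.

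**Figure D4:**
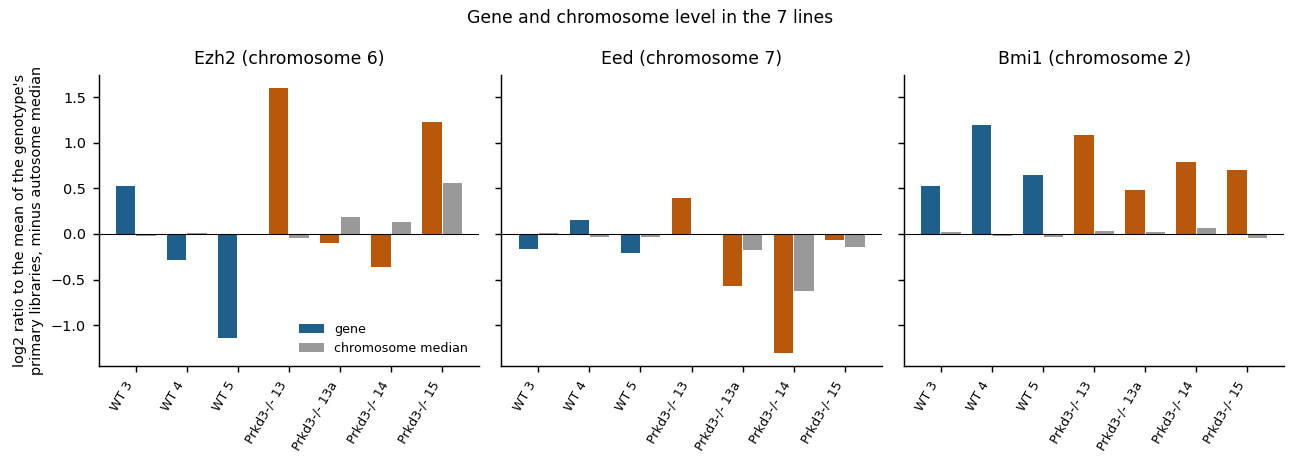
Log2 ratio of Ezh2, Eed and Bmi1 to the mean of the primary libraries of the genotype (coloured bars) beside the median ratio of all expressed genes on the same chromosome (grey bars), for each of the 7 lines and relative to the autosome median. The grey bars reach -0.63 for chromosome 7 in Prkd3-/- line 14 and 0.56 for chromosome 6 in line 15, and stay within -0.04 and 0.06 for chromosome 2.

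Ezh1, the catalytic subunit that resting cells retain, had its extremes in the same Prkd3-/- lines as Ezh2, the other way round. It was at 16.3, 16.6 and 16.5 CPM in primary WT clones and at 19.4, 14.98 and 19.9 CPM in lines 3, 4 and 5. It was at 10.95, 11.4 and 11.5 CPM in primary Prkd3-/- clones and at 7.83, 10.4, 23.8 and 16.1 CPM in lines 13, 13a, 14 and 15. Line 13, with the highest Ezh2, had the lowest Ezh1 of all libraries, and line 14, with the lowest Ezh2 of the Prkd3-/- lines, had the highest Ezh1. Its Log2FC was 0.14 ± 0.13 in WT, 0.36 ± 0.39 in Prkd3-/- and 0.25 ± 0.22 in the mean of both (edgeR adjusted p = 0.622, 0.884 and 0.616).

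Per kilobase of exon, the ratio of Ezh2 to Ezh1 was 1.27 to 1.36 in primary WT libraries and 1.65, 1.21 and 0.495 in WT lines 3, 4 and 5. It was 2.06 to 2.83 in primary Prkd3-/- libraries and 11.4, 2.57, 0.920 and 4.18 in lines 13, 13a, 14 and 15. The ratio fell below 1 in WT line 5 and Prkd3-/- line 14, and exceeded every primary library of the same genotype in WT line 3 and Prkd3-/- lines 13 and 15. Between states, averaged over genotypes, the log2 ratio differed by -0.02 (p = 0.994, exact two-sided permutation test over 700 labelings), a mean of lines that moved in opposite directions.

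Cbx2, a PRC1 reader tied to development, was higher in 3 of the 4 Prkd3-/- lines. It was at 8.44, 8.05 and 7.90 CPM in primary WT clones and at 11.8, 7.31 and 7.68 CPM in lines 3, 4 and 5. It was at 9.44, 7.03 and 8.81 CPM in primary Prkd3-/- clones and at 27.3, 13.3, 28.3 and 8.78 CPM in lines 13, 13a, 14 and 15. Line 15 lay within the primary range. The Log2FC was 0.14 ± 0.21 in WT, 1.19 ± 0.44 in Prkd3-/- and 0.67 ± 0.27 in the mean of both, with edgeR adjusted p-values of 0.769, 0.709 and 0.221. Cbx2 differed between the immortalized lines of the genotypes by 1.12 ± 0.37 (adjusted p = 0.209 in edgeR), and the difference of its immortalization effect was 1.07 ± 0.53 (edgeR adjusted p = 1.00).

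Cbx6, the most abundant of the Cbx readers here, was at 237, 233 and 243 CPM in primary WT clones and at 171, 314 and 356 CPM in lines 3, 4 and 5. It was at 185, 124 and 144 CPM in primary Prkd3-/- clones and at 174, 201, 339 and 207 CPM in lines 13, 13a, 14 and 15. WT line 3 was below all primary WT libraries and Prkd3-/- line 13 lay within the primary range, while the other 5 lines were above. The Log2FC was 0.24 ± 0.27 in WT, 0.60 ± 0.28 in Prkd3-/- and 0.42 ± 0.20 in the mean of both (edgeR adjusted p = 0.688, 0.788 and 0.318). Without WT line 3 the WT value was 0.50 and passed the test (edgeR adjusted p = 0.0273), as did 12.2% of genes in that fit. In primary cells Cbx6 was lower in every Prkd3-/- than in every WT library, a difference of -0.65 ± 0.30 on the log2 scale (adjusted p = 0.997 in edgeR), which passed only in limma with a weight per group (adjusted p = 0.0420), where 4.41% of genes passed. In edgeR 0.368% of genes passed that comparison, and 18.4% were lower in every Prkd3-/- than in every WT primary library. Ezh1 was among these as well, at -0.54 ± 0.33 (edgeR adjusted p = 0.997). Cbx6 shares 5.31% of its exon bases with Npcd on the same strand, where a read pair was counted for both.

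Cbx8 and Cbx7, further chromodomain readers of PRC1, gave small values. Cbx8 was at 7.08 to 8.57 CPM in primary WT libraries and 7.57 to 10.8 CPM in WT lines, and at 5.67 to 8.69 and 6.14 to 13.04 CPM in Prkd3-/-. Its Log2FC was 0.29 ± 0.19 in the mean of both genotypes (edgeR adjusted p = 0.485). Cbx7, best known for repressing the INK4 locus and extending fibroblast lifespan when overexpressed, was the lowest of the 9 genes. It was at 1.92, 2.05 and 1.47 CPM in primary WT clones and at 1.29, 1.34 and 4.13 CPM in lines 3, 4 and 5. In Prkd3-/- it was at 0.730 to 1.61 CPM in primary libraries and 0.364 to 1.78 CPM in lines. WT line 5 alone was above every primary library of WT, and the mean Log2FC of 0.22 ± 0.41 (edgeR adjusted p = 0.830) became -0.18 without it.

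As levels per kilobase of exon, the order was the same at its upper end in each group but the Prkd3-/- lines. In primary WT libraries Cbx6 led with 22.4 ± 0.479 CPM per kb (SD, n = 3), followed by Bmi1 at 11.6 ± 0.485 and Suz12 at 11.3 ± 0.0598, which overlapped each other. Eed at 7.21, Ezh2 at 2.93, Ezh1 at 2.21, Cbx8 at 2.13, Cbx2 at 1.91 and Cbx7 at 0.279 CPM per kb came next, and Ezh1 overlapped Cbx8 and Cbx8 overlapped Cbx2. In the Prkd3-/- lines Bmi1 had the highest mean, 23.1 ± 4.39 CPM per kb against 21.7 ± 6.96 for Cbx6 (SD, n = 4), with ranges that overlapped. Cbx7 came last in all 4 groups and did not overlap the gene above it.

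The 4 Cbx readers were compared as shares of their summed CPM per kb. Cbx6 made up 83.8% ± 1.14 in primary WT libraries, 83.4% ± 6.62 in WT lines, 77.8% ± 0.399 in primary Prkd3-/- libraries and 74.9% ± 7.67 in Prkd3-/- lines (SD, n = 3, 3, 3 and 4). The share of Cbx2 was 7.15% ± 0.228, 7.62% ± 4.77, 10.9% ± 0.936 and 15.6% ± 7.11 in the same order, with 25.4% in Prkd3-/- line 13. Within each genotype the SD of the Cbx6 share among lines was larger than the difference between the means of primary cells and lines.

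**Figure D5:**
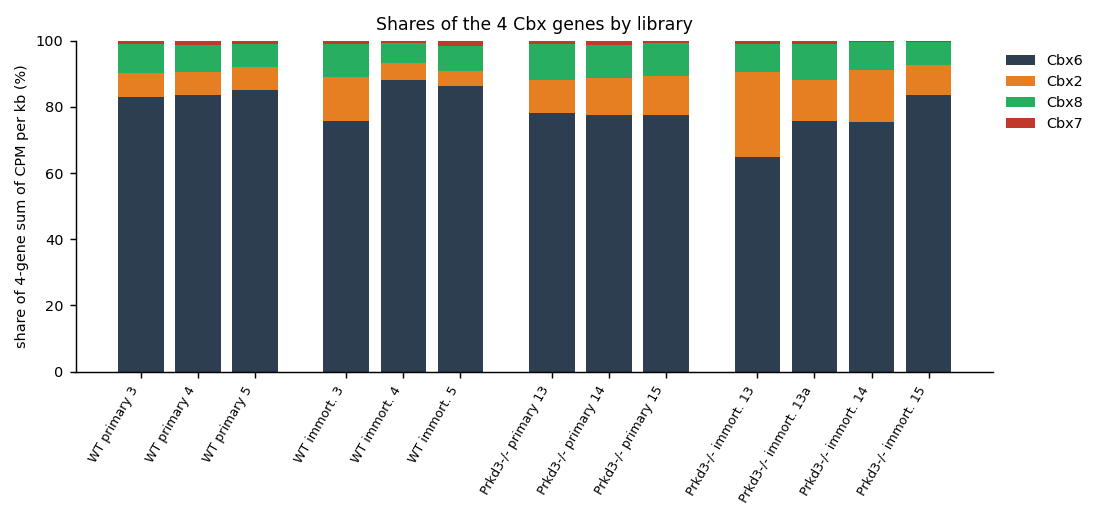
Share of each of 4 Cbx genes (stacked bars, in percent) in their summed CPM per kb of exon, 1 bar per library. Cbx6 holds most of every bar, and the Cbx2 share runs from 4.64% in a WT line to 25.4% in Prkd3-/- line 13.

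The genes of the wider pathway were counted in the same fits. Of 59 tested genes in lists of other PRC2, PRC1, deubiquitinase, H3K27 demethylase and trithorax genes, 0 passed an edgeR adjusted p of 0.05 in the mean of both genotypes, where 3.25% of all genes passed, and 1 passed in WT, lower in the lines, where 5.27% did. That gene was Scml4, a Polycomb group protein named here after its value was seen, with a Log2FC of -2.64 ± 0.33 (edgeR adjusted p = 0.0105). It rested on few counts, 26 to 42 per primary WT library and 3 to 5 per WT line. In Prkd3-/- Scml4 was at -0.39 ± 0.85 (edgeR adjusted p = 0.945), with 2 lines above and 2 below every primary library. The median Log2FC in the mean of both genotypes was 0.01 over 10 other PRC2 genes, 0.10 over 10 other canonical PRC1 genes, 0.11 over 16 variant PRC1 genes and 0.29 over the 9 genes, against 0.06 over all 21197 genes tested.

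The histone-binding PRC2 subunits Rbbp4 and Rbbp7 had Log2FC values of -0.24 ± 0.16 and 0.19 ± 0.13 in the mean of both genotypes. The ubiquitin ligases of PRC1, Ring1 and Rnf2, were at 0.04 ± 0.15 and 0.16 ± 0.10, and Pcgf2, the closest relative of Bmi1, was at 0.33 ± 0.18. Of the polyhomeotic subunits, which join PRC1 complexes to each other, Phc1 was at 0.52 ± 0.14 (edgeR adjusted p = 0.0742), Phc2 at -0.22 ± 0.25 and Phc3 at -0.15 ± 0.14. Phc1 lay at 61.6, 41.0, 47.2 and 67.9 CPM in Prkd3-/- lines 13, 13a, 14 and 15. All were above the primary libraries at 27.2 to 34.9 CPM, a pattern held by 4.19% of genes tested in Prkd3-/-. In WT lines 3 and 4, at 42.8 and 42.4 CPM, Phc1 was above the primary WT libraries at 33.9 to 34.8 CPM, and in WT line 5, at 31.5 CPM, below them. Phc1 lies on chromosome 6, whose median log2 ratio relative to autosomes was -0.04, 0.18, 0.13 and 0.56 in those Prkd3-/- lines. The part of chromosome level in the Phc1 values was not tested.

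The genes whose log2 CPM over the 13 libraries was most like each of the 9 were listed from 15806 genes by Pearson's r, as a description over libraries that share scaling and genotype. For Ezh2 they were Atad2 (r = 0.978), Sgo1 (0.974) and Kif20b (0.973), and for Suz12 Cep295 (0.974), Prpf4b (0.972) and Ppp6r3 (0.971). For Eed they were Uqcrc2 (0.974), Pik3c2a (0.943) and Rsf1os2 (0.943), 3 of 3 on chromosome 7 like Eed itself. For Bmi1 they were Cab39l (0.953), the pseudogene Rps15-ps2 (0.942) and Rpl41 (0.934), 0 of 3 on chromosome 2. Cbx2 was most like Ddx39b (0.948) and Myg1 (0.943), and Cbx6 most like Sh3d19, Endov and its exon-sharing neighbour Npcd (0.940 to 0.957). Ezh1 went with Nbr1, Pdlim2 and Dnal1 (0.922 to 0.931), Cbx8 with Ndufaf1, Gm5540 and Slc30a1 (0.892 to 0.908) and Cbx7 with N6amt1, Tmem177 and Plekhh1 (0.859 to 0.887). By Spearman's rank correlation only 5 of the 27 leading pairs were among the leading 3. For Eed the leading 3 by rank were Zfp639, Supt20 and Rtca, so its 3 chromosome 7 genes were not kept.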

How the data were processed

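Poly-A RNA of 13 MEF cultures was sequenced in read pairs. For WT the authors mapped pairs to mm10 with STAR 2.7.10a, converted them with SAMtools 1.18 and counted uniquely mapped pairs on Ensembl GRCm38 genes with featureCounts of Subread 2.0.6, with no strand setting and with a pair counted for every gene it overlaps, per the file headers. The deposited values are raw counts per gene in 2 tables, 1 per genotype. The submitters' processing notes name the same tools for the Prkd3-/- table, whose command is not given in the sources used here. Gene lengths are the deposited exon bases.

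Counts were tested with edgeR 4.0.16 (quasi-likelihood, TMM, its low-count filter, robust) in R 4.3.3 over all genes, with Benjamini-Hochberg adjustment and a threshold of 0.05, beside the study's thresholds of 0.01 and a |Log2FC| of at least 1. Each genotype was fitted on its own, and the mean of both, the difference and the genotype comparisons on all 13 libraries. SE is the fitted standard error and SD is over libraries. Intervals of counting error are small at these depths, and a floor of 3 counts is 0.0299 to 0.0850 CPM, for counting error only. Other settings tried were DESeq2 1.42.0, edgeR with the size factors of DESeq2 or unscaled library sizes, no low-count filter or a minimum of 10 counts in each library, estimation that was not robust, group weights in limma 3.58.1, a replicate block, lines 13 and 13a summed, a joint fit and leaving out each library. Pairs of primary and immortalized libraries were set by the clone numbers in the labels, with line 13a set against primary clone 13. For WT the study states that equal numbers follow the same embryo. For Prkd3-/- a shared origin was assumed from the number alone. Same-numbered deviations correlated at -0.04 to 0.02 in WT and -0.28 to 0.14 in Prkd3-/-. Simulated counts had 200 genes changed by 1 on the log2 scale and the same dispersion of 0.04 in all groups. On these, edgeR recovered 138 in the WT design (9 false calls among 19957 genes) and 199 in the mean of both (9 among 20640). It recovered 43 in the difference between genotypes (2 among 20700). The real libraries differed by 2.09% to 3.39% in primary WT, by 19.9% to 25.7% in WT lines and by 26.4% to 52.6% in Prkd3-/- lines. The recovered counts therefore do not give the share of true changes found in these data.

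The 9 genes, the pathway lists and the marker lists were chosen with earlier results of these data known; 117 of 118 listed genes were found by symbol. Named partners are those listed as PRC1 or PRC2 core genes whatever their result, and each of the 9 genes has its 3 most alike genes; a listed partner gene and 1 alike gene are not reported here, and the Cbx shares were taken over the 4 Cbx genes among the 9. The other marker lists gave low sums: at most 28.7 CPM for endothelial, 4.30 for epithelial, 12.6 for Schwann cell and 27.3 for skeletal muscle markers in any library.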

Additional observations from a re-analysis of the deposited data

How the results depend on the processing

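In the mean of both genotypes 1 of the 9 genes passed, Bmi1, and with the replicate block 0 did. The block (pairing by number) changed no other call. The 13 fits that left out 1 library each kept Bmi1 past the threshold, with a Log2FC of 0.69 to 0.87 and an adjusted p of 0.00462 to 0.0388, and over all 22 alternatives its adjusted p ran from 1.88e-05 (DESeq2) to 0.0771 (replicate block). In WT 0 of the 9 genes passed, against 1 (Bmi1) with DESeq2 and 1 (Bmi1) with limma, and 0 to 2 when 1 library was left out, the 2 being Bmi1 and Cbx6 without line 3. In primary Prkd3-/- against WT 0 passed, and 1 (Cbx6) with limma. Signs turned for values that passed no test. With library size alone, which moved the median Log2FC of all genes from 0.04 to -0.10 in WT and from 0.06 to 0.18 in the difference between genotypes, Suz12 in WT became -0.092, Cbx2 in WT -0.0026 and Bmi1 in the difference 0.074. Cbx7 in Prkd3-/- became -0.14 with limma, -0.18 with the block and -0.056 with lines 13 and 13a summed, and in the mean of both -0.028 with limma and -0.046 with the block. With 1 library left out, the WT Log2FC ranged from -0.63 to 0.21 for Ezh2, -0.17 to 0.029 for Eed and -0.018 to 0.25 for Cbx8 (turned only without line 5), from -0.11 to 0.18 for Suz12 and -0.12 to 0.26 for Cbx2 (negative only without line 3), and from -0.46 to 0.60 for Cbx7 (negative only without line 5). It ranged from -0.058 to 0.53 for Suz12 and -0.11 to 0.43 for Cbx7 in Prkd3-/-, from -0.0012 to 0.30 for Suz12 and -0.18 to 0.38 for Cbx7 in the mean, and from -0.20 to 0.16 for Bmi1 in the difference. The log2 ratio of Ezh2 to Ezh1 ranged from -0.32 without Prkd3-/- line 13 to 0.28 without line 14, was -0.14 with the replicate block (p = 0.750, exact over 64 sign patterns) and -0.13 with 13 and 13a summed (p = 0.770, exact). The cause of these turns was not tested. Counts over all genes moved more: in WT 1045 passed in edgeR, 2454 in DESeq2, 459 with at least 10 counts in every library and 214 with the block, and in the mean of both 689, 1772, 117 and 39.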
